A study of Rattus norvegicus with 8 samples.

Results

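Presynaptic vesicle cycle genes code for the proteins that fill synaptic vesicles, dock and fuse them at the axon terminal and retrieve their membrane. They were taken as a fixed list of 38 gene symbols. No measured value entered its rule, but it was chosen with earlier results of these data known. The list was looked up in 2 deposited tables that compare treatments in the axons and in the cell bodies of rat hippocampal neurons. Of the 26405 Ensembl identifiers in each table, 28 carried a listed symbol as deposited. Another 10 were matched through their Entrez identifier to RefSeq symbols, among them a second identifier of Rims2 and the row of Amph, which is deposited under the symbol LOC100910792. The list was thus covered by 38 identifiers of 37 genes, and Unc13a was the 1 symbol without a matched row. The neurons came from rat embryos and grew in chambers whose microgrooves let axons, but not cell bodies, reach a separate compartment. The axons alone were kept for 24 h with Abeta(1-42), an amyloid peptide in the form of soluble oligomers, or with vehicle, so the cell bodies of both treatments saw neither directly, and no genetic change is named. The 4 groups were axons Abeta, axons control, soma Abeta and soma control, with 2 samples each. The soma samples held neurites as well as cell bodies, per the labels.

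Neurotransmitter release starts with vesicles held in a cluster by synapsins and filled by transporters. Scaffolds of the active zone place them beside calcium channels, and SNARE proteins of the vesicle and plasma membrane zip together and fuse them when a synaptotagmin senses calcium. Clathrin and its adaptors then take the vesicle membrane back. Most of these proteins are made in the cell body and carried down the axon, and a part of their mRNAs is also found in axons.

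The tables give, per gene and compartment, the mean normalized count over 4 libraries and a DESeq2 log2 fold change between treatments, with no word on its numerator. A gene is therefore said to lie on the positive or the negative side, by the deposited sign, and which side is Abeta is not known. Reads per library were recovered by arithmetic from the deposited means (described with the processing), and the libraries are called positive 1, positive 2, negative 1 and negative 2, where 1 has the larger size factor. They cannot be tied to a sample title and enter no test except 1 somatic fit, given as such. The axonal libraries held 231854 to 425420 recovered reads and the somatic ones 262971 to 3656302. Each somatic side held a deep and a shallow library, with size factors of 2.97 and 0.297 (positive) and 3.74 and 0.320 (negative). In axons, the summed level of 10 astrocyte markers was 3602 and 3949 normalized counts on the positive side against 652 and 1159 on the negative side, none of them was at 0, and 6 were called on the positive side. Of the astrocyte log2 fold changes 8 lay above 0 and 2 below, those of Slc1a2 (-0.82) and Sparcl1 (-0.71). In positive 1, Gfap held 1228 and Vim 1286 of the sum. The 8 microglia markers had a lower sum on the positive side, at 65.0 and 27.4 against 108 and 173, with at most 1 of them at 0 in a library. Of their log2 fold changes 7 of 8 lay on the negative side (median -1.11), 2 had unadjusted p-values under 0.05 and none had an adjusted p, so none could be called. The 10 neuron marker identifiers, which cover 9 genes because Eno2 has 2, stood at 625 and 750 on the positive side against 436 and 769.9, none at 0 and none called, with negative 1 the lowest. The part of these cell types in the values below was not tested.

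The first comparison asks whether vesicle cycle transcripts of the axons differed between the treatments. None of the 38 identifiers passed the authors' adjusted p under 0.05. In the authors' deposited table, adjusted p-values stand for 16 of the 38, and the lowest mean normalized count of any gene that has one is 44.8. Over all genes with an adjusted p, 23% were called, 8.78% with a positive and 14.2% with a negative fold change. All 16 members also had a somatic mean of 100 or more, and of the genes with both, 17.8% were called. The smallest adjusted p of a member in the authors' deposited table was 0.116, for the clathrin heavy chain gene Cltc. Since bulk RNA was measured, fewer axons and less RNA per axon cannot be told apart in any of these values. Counts divided by size factors are relative to the other RNA of a library and give no amount per axon.

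Among vesicle proteins, Syp and Syt11 were the members with positive-side libraries above both negative-side ones and an adjusted p. Syp codes for synaptophysin, an abundant membrane protein of synaptic vesicles, and had 77.1 and 101 normalized counts on the positive side against 53.6 and 68.9 on the negative side. Its log2 fold change in the authors' deposited table was 0.51 (SE 0.53, adjusted p = 0.545). Syt11, a synaptotagmin that does not bind calcium, had 109 and 86.9 against 44.1 and 68.9 normalized counts, again without overlap. The authors' deposited table lists 0.74 with an SE of 0.53 for it (adjusted p = 0.357). Syt4, another member of that family, had 57.4 and 45.4 against 30.5 and 62.1 normalized counts, so that the sides overlapped. The authors' deposited table gives it 0.14 (SE 0.61, adjusted p = 0.887).

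The vesicular glutamate transporters lay on the negative side through 1 library. Slc17a7 (VGLUT1), which loads glutamate into vesicles, had 76.3 and 62.6 normalized counts on the positive side, against 50.4 and 132. Negative 2 was the highest and negative 1 the lowest of the 4, and the authors' deposited table lists a fold change of -0.36 on the log2 scale with an SE of 0.57 (adjusted p = 0.696). Slc17a6 (VGLUT2) had 9.07, 10.2 and 9.45 normalized counts in positive 1, positive 2 and negative 1 but 25.7 in negative 2. Syt1, the calcium sensor of fast release, showed the widest gap of the vesicle proteins between libraries of a side, with 5.25 normalized counts in negative 1 and 49.97 in negative 2, and 17.4 and 21.9 on the positive side. These 5.25 and 49.97 normalized counts rest on 5 and 37 reads.

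The synapsins, phosphoproteins that tether vesicles to each other, followed the same order of libraries. Syn1 had 26.3 normalized counts in negative 1 and 68.9 in negative 2, with 37.8 and 43.8 on the positive side between them. Syn2 had 10.5 and 31.1 around positive-side values of 18.9 and 27.4. Sv2a and Sv2b, glycoproteins of the vesicle membrane, had sides without overlap. Sv2a had 45.4 and 44.6 normalized counts against 43.1 and 24.3, so that the nearest libraries of the sides lay close together, and Sv2b had 21.2 and 16.4 against 9.45 and 16.2. For Sncb (beta-synuclein), Syngr1 and Syngr3 (synaptogyrins, vesicle proteins related to synaptophysin) the sides overlapped, and the authors' deposited table lists 0.14, 0.44 and 0.56 for them on the log2 scale. Over the 13 vesicle proteins the median log2 fold change was 0.14, with 9 above and 4 below 0.

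Of the SNARE machinery, Vamp2 had the most even values. It codes for synaptobrevin 2, the SNARE of the vesicle, and had 103 and 113 normalized counts on the positive side against 91.4 and 111 on the negative side. In the authors' deposited table its log2 fold change was 0.09 (SE 0.48, adjusted p = 0.905), with a 95% interval of -0.84 to 1.03 computed from that SE. The interval does not exclude a change of about 2-fold to the positive side. Snap25, a SNARE of the plasma membrane, had 45.4 and 36.0 against 43.1 and 63.5 normalized counts, which overlapped, and the authors' deposited table lists -0.35 with an SE of 0.60 (adjusted p = 0.720). Stx1a (syntaxin 1A), the plasma membrane partner of Snap25, had 36.3 and 32.9 against 30.5 and 18.9, without overlap. Vamp1, a second synaptobrevin, had no more than 11.6 normalized counts in any axonal library.

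The SNARE recycling factors are given singly, and no test between them was made. Nsf, the ATPase that pulls spent SNARE complexes apart, had 52.9 and 59.5 normalized counts against 31.5 and 58.1, and the authors' deposited table lists 0.31 with an SE of 0.60 (adjusted p = 0.749). Napa (alpha-SNAP), the adaptor through which Nsf binds SNAREs, had 24.9 and 35.2 against 9.45 and 20.3, without overlap, at a log2 fold change of 0.88 (SE 0.76, unadjusted p = 0.247) in the authors' deposited table. Napb (beta-SNAP), its brain form, had 2.10 normalized counts in negative 1 and 20.3 in negative 2, from 2 and 15 reads, around 7.56 and 10.96 on the positive side. The complexins clamp and promote fusion, and their values followed different libraries: Cplx1 had 34.0 and 12.5 against 17.9 and 37.8, and Cplx2 6.80 and 25.04 against 6.30 and 21.6 normalized counts. Unc13b (Munc13-2), a vesicle priming factor, had 27.97 and 31.3 inside the negative-side values of 42.0 and 23.0. Over the 10 matched SNAREs and regulators, 5 log2 fold changes lay above and 5 below 0, with a median of -0.01.

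The active zone scaffolds held the member whose libraries were all higher on the negative side. Bsn codes for bassoon, a giant scaffold of the active zone, and had 92.2 and 95.5 normalized counts on the positive side against 132 and 149 on the negative side. The authors' deposited table lists -0.55 on the log2 scale with an SE of 0.46 for it (adjusted p = 0.440). Pclo (piccolo), the related giant scaffold, had 48.4 and 56.3 against 49.4 and 55.4 normalized counts. Its log2 fold change in the authors' deposited table was 0.00 (SE 0.57, adjusted p = 0.999), and the 95% interval computed from it runs from -1.12 to 1.12. Rims1, which links vesicles and calcium channels, had 30.2 and 21.9 against 25.2 and 29.7 normalized counts. The main Rims2 identifier, ENSRNOG00000004201, had 15.1 and 24.3 against 30.5 and 5.40, and the other, ENSRNOG00000047652, had 3 reads in negative 1 and none elsewhere in either compartment. That second identifier is the 1 member whose axonal mean did not exceed 6.23 normalized counts, the 95th percentile of the 5473 genes that had axonal but no somatic reads.

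Endocytic proteins gave the largest differences in both directions. Cltc, the heavy chain of the clathrin coat, had 196 and 209 normalized counts on the positive side against 91.4 and 112 on the negative side, with a wide gap between the sides. Its log2 fold change in the authors' deposited table was 0.95 (SE 0.45), or 1.93-fold, with an unadjusted p of 0.0332 and an adjusted p = 0.116. All other members had unadjusted p-values above 0.05. Clta, the light chain A of the same coat, had 26.5 and 32.1 against 22.1 and 10.8 normalized counts, also without overlap, at 0.70 (SE 0.75) in the authors' deposited table. Ap2m1, the cargo-binding subunit of the plasma membrane adaptor AP-2, had 132 and 125 against 46.2 and 97.2, and the authors' deposited table lists 0.80 with an SE of 0.52 (adjusted p = 0.304). Its partner subunit Ap2a1 had 46.1 and 50.1 normalized counts inside negative-side values of 66.2 and 37.8, and the authors' deposited table lists -0.11 with an SE of 0.59 (adjusted p = 0.909).

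The remaining endocytic proteins overlapped between the sides. Snap91 (AP180), a neuronal clathrin assembly protein, had 56.7 and 55.6 against 49.4 and 79.7 normalized counts, and Dnm1 (dynamin 1), the GTPase that cuts vesicles off the membrane, had 64.2 and 43.0 against 58.8 and 44.6. Synj1 (synaptojanin 1), a lipid phosphatase that helps to shed the coat, had 45.4 and 57.9 against 57.8 and 56.7. In the authors' deposited table Snap91 has -0.18 (SE 0.56, adjusted p = 0.851), Dnm1 0.05 (SE 0.58, adjusted p = 0.968) and Synj1 -0.14 (SE 0.57, adjusted p = 0.884) on the log2 scale. Amph (amphiphysin) and Sh3gl2 (endophilin A1), which bind curved membrane and recruit dynamin or synaptojanin, were again high in negative 2. Amph had 97.2 normalized counts there and 37.8 to 52.2 in the other 3 libraries, and the authors' deposited table lists -0.44 with an SE of 0.60 (adjusted p = 0.653). Sh3gl2 had 33.8 there and 5.25 to 7.83 elsewhere, and with it the lowest log2 fold change of the list, -1.02 (SE 0.90, unadjusted p = 0.258), in the authors' deposited table. Ap3b2, the neuronal subunit of the adaptor AP-3, had 40.8 and 29.7 against 38.9 and 49.97.

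**Figure D1:**
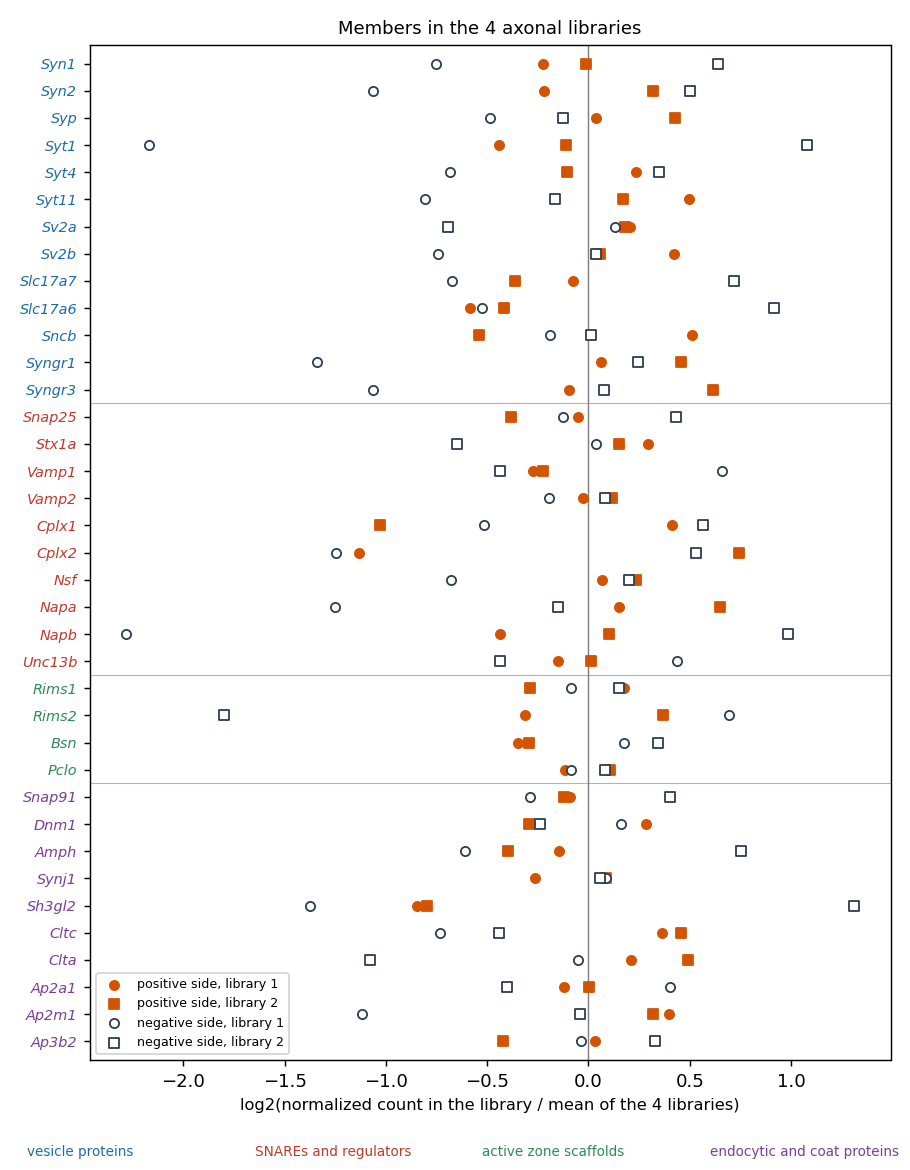
The horizontal axis is the log2 of a member's normalized count in a library over its mean in the 4 axonal libraries, with filled symbols for the positive and open symbols for the negative side, for the 37 identifiers other than the Rims2 identifier with 3 reads. Cltc shows a gap between the sides, while Syt1, Napb and Sh3gl2 are spread by the open symbols, with negative 1 low and negative 2 high.

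Counted over the list, 20 of the 38 axonal log2 fold changes lay above and 18 below 0, with a median of 0.02. Over all 23879 genes with axonal reads the median was -0.13, and over the 2683 genes whose somatic mean reached 100 it was 0.44. The 27 members among these had a median of 0.09. Of the 35 members with an axonal mean of at least 10, 9 had both positive-side libraries above both negative-side ones and 1, Bsn, the reverse. Together these are 28.6% of the 35. Of all recovered genes with that mean, 49.5% had sides without overlap, 30.6% with the positive and 18.9% with the negative side higher. Of those whose somatic mean also reached 100 it was 54%, with 48.1% and 5.92% in these directions.

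The negative-side axonal libraries differed from each other more than the positive-side ones, over all genes as over the members. All genes are here those with an axonal mean of at least 10 and reads in both libraries compared. Of these, 34.1% of 7757 differed by over 2-fold between the negative-side and 22.5% of 7794 between the positive-side libraries. Of the 35 members 45.7% and 8.57% did. Of the genes whose somatic mean also reached 100, 30.8% and 9.18% did, beside 33.3% and 7.41% of the 27 members among them. Negative 2 was above negative 1 for 27 of the 35 members, by a median of 0.64 on the log2 scale (SD over members 1.18, over all genes 1.197). Of the 7757 genes it was above for 3966. Of the 2510 whose somatic mean reached 100 it was above for 1511, beside 21 of the 27 members among them. By over 2-fold it was above for 14 of the 35 members and below for 2, beside 1383 and 1264 of the 7757 genes. Between the positive-side libraries the median difference was 0.09 (SD 0.56, over all genes 0.92), with 1 member over 2-fold one way and 2 the other. Over all genes these medians were 0.02 and 0.12, and for genes whose somatic mean reached 100 they were 0.24 and 0.25. Between the negative-side libraries the neuron markers had a median of 0.61, the astrocyte markers 1.33 (6 of 10 over 2-fold) and the 3 microglia markers with a mean of at least 10 had 0.90. Without negative 2, the median log2 ratio of the sides over the 35 members changed from 0.05 to 0.38, and without negative 1 it was -0.08. The part of these marker differences in the members' values was not tested.

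The second comparison asks whether the same transcripts differed in cell bodies whose axons were treated. No member was called, and 0% of all 18995 genes with an adjusted p were (DESeq2). At an unadjusted p under 0.05 there was none of the 37 members with somatic reads, and 2 genes of the whole table. For Pclo, the member with the smallest p, the authors' deposited table lists -0.58 on the log2 scale with an SE of 0.50 (unadjusted p = 0.248). Pclo had 66.7 and 80.8 normalized counts in the deep and the shallow library of the positive side, against 80.7 and 175 in those of the negative side. Its positive-side shallow library lay just above its negative-side deep one, and the other 3 of its 4 orders put the negative side higher.

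Stx1a was the 1 member of 36 recovered ones with somatic sides that did not overlap, beside 15.7% of all recovered genes with that minimum mean, 7.42% with the positive side higher. It had 153 and 152 normalized counts on the positive side against 114 and 93.8 on the negative side, and 0.43 (SE 0.47, unadjusted p = 0.359) in the authors' deposited table. In axons Stx1a had a like value, 0.42 (SE 0.68), in the authors' deposited table. Snap25, its SNARE partner, was lower on the positive side at each depth in soma, with 342 against 484 normalized counts in the deep and 172 against 231 in the shallow libraries, at -0.36 (SE 0.50) in the authors' deposited table. Napa stood at 0.31 (SE 0.51) in the authors' deposited table, with 62.6 against 60.9 in the deep and 135 against 84.5 in the shallow libraries, so its difference came from the shallow pair. The vesicle proteins Syt11 (0.02), Syngr3 (0.02), Syngr1 (-0.04) and Syp (-0.06) had fold changes near 0 in the authors' deposited table, each with an SE of 0.45 to 0.52.

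Because each side held a deep and a shallow library, the treatments can be set side by side within a depth. Over the 36 recovered members, the log2 ratio of the sides had a median of -0.01 (SD 0.27) in the deep pair and 0.05 (SD 0.48) in the shallow pair. It was above 0 at both depths for 8 members and below 0 at both for 9, and no member exceeded 2-fold at both. Of 10951 recovered genes compared in this way, 2588 lay above and 3272 below 0 at both depths, and 33 exceeded 2-fold at both. Over the 2564 recovered genes whose somatic mean reached 100, these counts were 508, 986 and 0. The SDs of these 2564 genes were 0.25 in the deep and 0.37 in the shallow pair. The members' SD between depths was 1.12, and the deposited SEs of 0.43 to 0.58 come from a table that names no depth term. A fit with depth as a block was therefore added after seeing the data (limma on the log2 of the recovered normalized count + 1, 11048 genes). The members' median SE was 0.20 with the block and 0.49 without it. With the block 0 of 36 members passed, as did 1 gene in all (0.00905%), and without it 0 of both (0%). At an unadjusted p under 0.05 the block gave 3 members, beside 6.91% of all genes, and these were Pclo at -0.69 (SE 0.24, adjusted p = 0.554), Snap25 at -0.46 (SE 0.17, adjusted p = 0.569) and Stx1a at 0.55 (SE 0.21, adjusted p = 0.586).

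**Figure D2:**
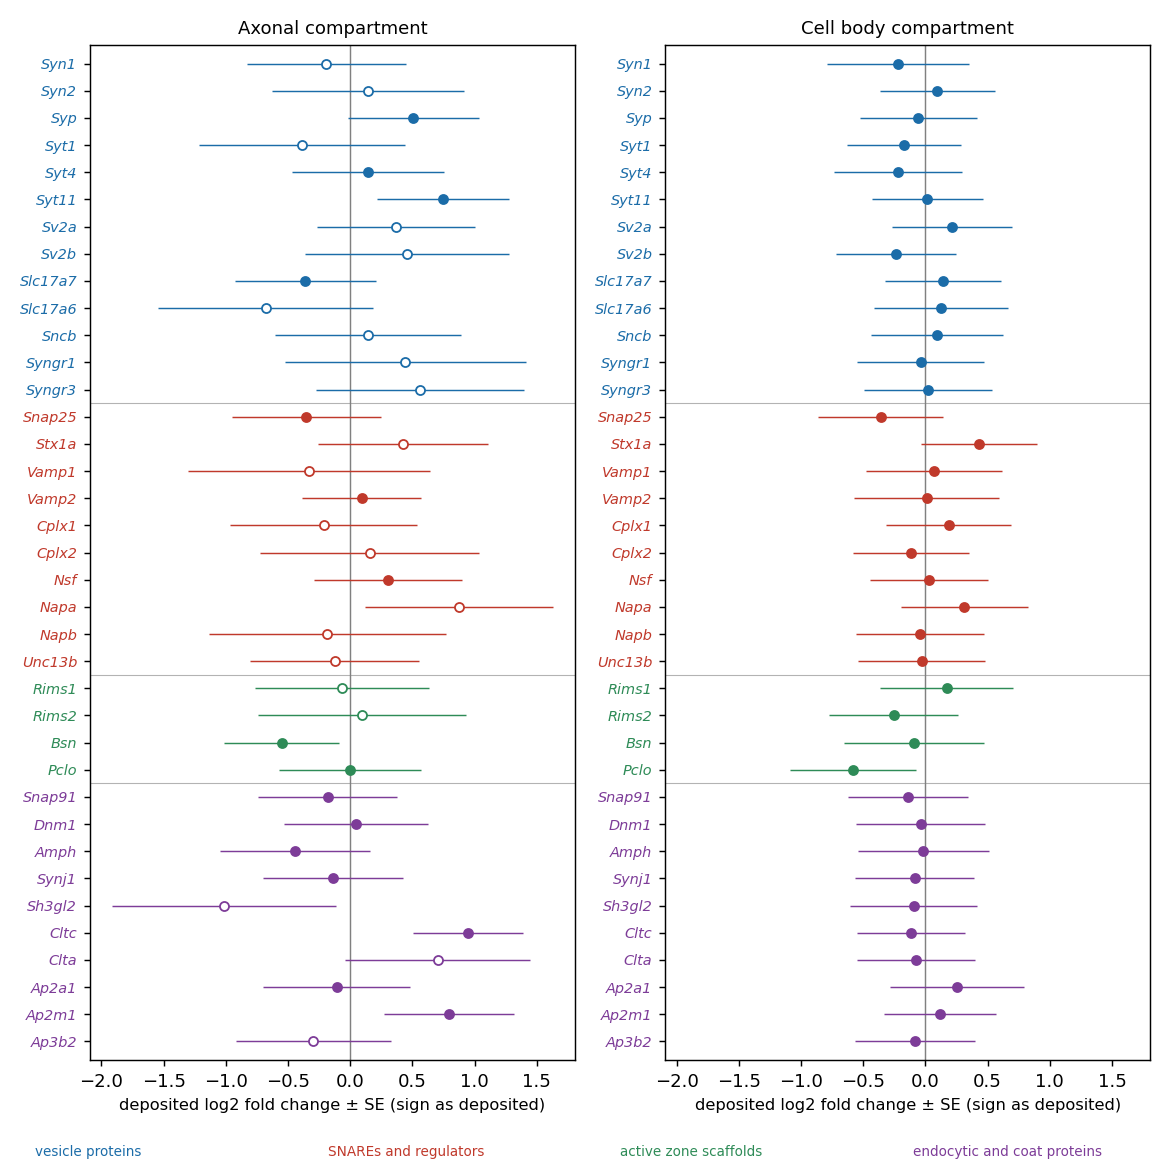
Points are the deposited log2 fold changes in axons (left) and cell bodies (right) with bars of 1 SE, on a shared axis. Filled axonal points have an adjusted p, open ones have none. In axons Cltc, Napa, Ap2m1 and Syt11 lie to the right and Bsn, Slc17a6 and Sh3gl2 to the left. In cell bodies every point lies between -0.58 and 0.43.

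Depth, in contrast, went with large differences in the members themselves. Vamp2 had 38.7 and 64.4 normalized counts in the deep somatic libraries and 694 and 657 in the shallow ones, a 13.1-fold difference of the means after scaling. Syn1 had 23.9 and 33.1 in the deep and 125 and 156 in the shallow libraries, and Bsn had 79.8 and 67.1 against 303 and 357. These genes were thus far lower in the deep libraries of both treatments. Ap2a1 (102 and 90.0 against 337 and 250.2), Dnm1 (141 and 134 against 319.9 and 344) and Sncb (71.4 and 57.2 against 168 and 163) also lay over 2-fold higher in the shallow library on each side.

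Other members went the opposite way. Amph, whose product works beside dynamin 1, had 355 and 359.9 normalized counts in the deep and 131 and 135 in the shallow libraries. Snap25 had 342 and 484 in the deep against 172 and 231 in the shallow, and Napb 152 and 168 against 80.8 and 75.1. Syt4, at 688 and 1084 against 448 and 309.7, had a wide spread between the treatments as well as between the depths. In all, 34 of 36 members differed between depths in the same direction on each side. Among the 11048 recovered genes whose mean reached 10, 8599 did. Of the 2564 whose somatic mean reached 100, 2260 did, beside 26 of the 26 members among them. By over 2-fold on each side, 6 members were higher and 1, Amph, lower in the shallow libraries, beside 1227 and 932 of the 11048 genes. Between depths the means of 33.3% of members differed by over 2-fold, against 29.8% of all recovered genes whose mean reached 10, so the share was near that of other genes. What separates the deep from the shallow libraries is not given by the labels. Vamp2 and Syn1 therefore have somatic means that average libraries 13.1-fold and 4.93-fold apart.

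**Figure D3:**
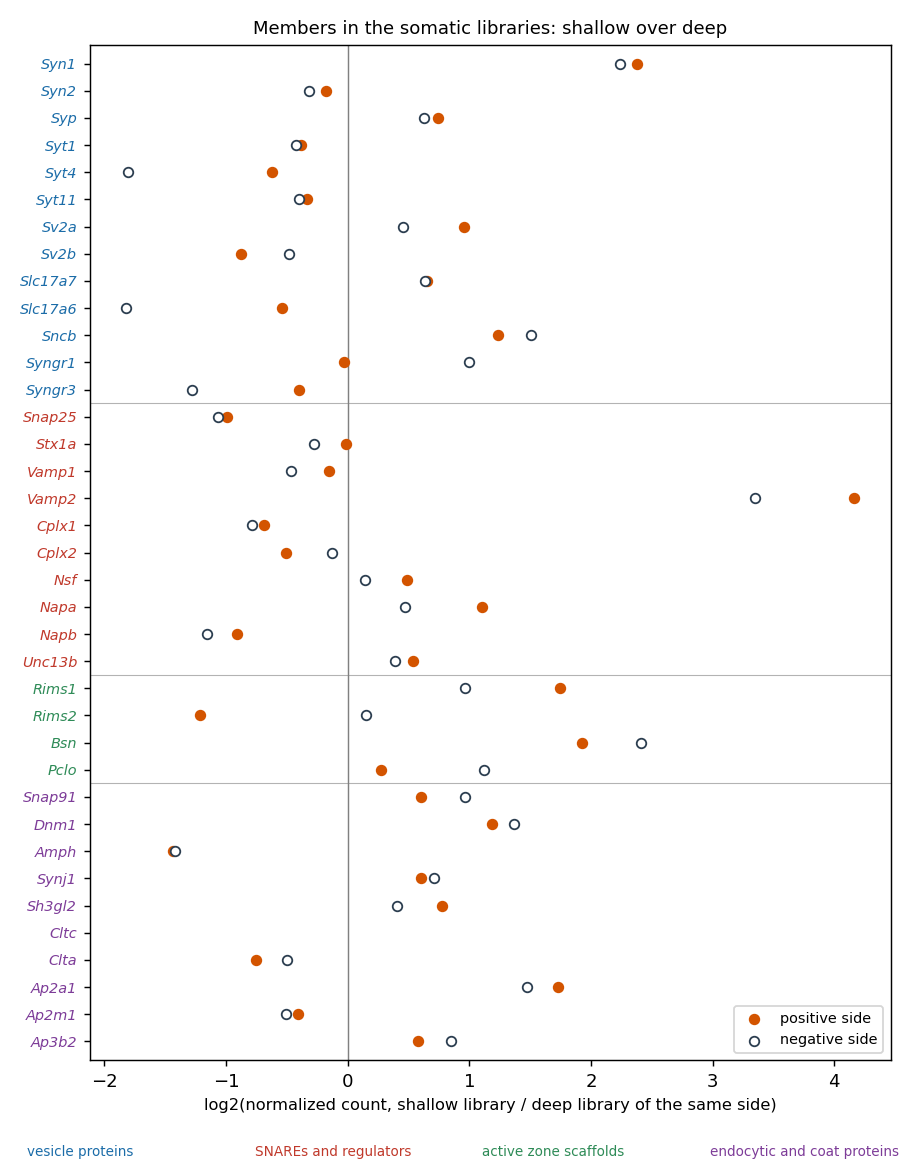
The horizontal axis is the log2 of a member's normalized count in the shallow over the deep somatic library of the same side, filled for the positive and open for the negative side. Both symbols lie on the same side of 0 for 34 of 36 members, with Vamp2, Bsn and Syn1 far to the right and Amph to the left. Of the 11048 recovered genes whose mean reached 10, 8599 had both values on the same side. Cltc has no point, since its somatic mean was not resolved into libraries.

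The third comparison asks whether the treatment difference of a member was itself different between axons and cell bodies. Of the 37 members with a fold change in both tables, 0 passed (z-test of the difference with Benjamini-Hochberg adjustment over 18406 genes), and none had an unadjusted p under 0.05. Over all genes 0.0326% passed. Cltc had the largest difference in favour of axons, 1.06 on the log2 scale (SE 0.62, adjusted p = 1.00 over all genes, unadjusted p = 0.0866), from 0.95 in axons and -0.12 in soma. Clta followed at 0.78 (SE 0.89), from 0.70 and -0.08, and Syt11 at 0.73 (SE 0.69), from 0.74 and 0.02. On the other side stood Sh3gl2 at -0.92 (SE 1.03) and Slc17a6 at -0.80 (SE 1.02). The differences of Clta, Sh3gl2 and Slc17a6 are smaller than their own SEs, and that of Syt11 is little larger.

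The fourth comparison sets the level of each member in axons against its level in the cell bodies, which lets genes be ranked without regard to their length. The ratio of the deposited axonal to somatic mean was divided by its median over the 7257 genes whose mean reached 10 in both tables, 0.300, since the tables were normalized separately. No test was made. On this centred log2 scale 30 of the 35 members with such means lay below 0 and 5 above, with a median of -0.57. The direction depends on the genes used for centring, since with the neuron markers in their place the median was 0.18. The SD of that median over the 4 axonal libraries was 0.24. The 2655 genes of this set whose somatic mean reached 100 had a median of -0.60, and the 27 members among them -0.66.

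By role, vesicle proteins had a median of -1.11, with 11 of 12 below 0, and endocytic proteins -0.45, with 10 of 10 below. Beside these, 2096 of the 2655 genes whose somatic mean reached 100 lay below 0, with a median of -0.60. With the deep somatic pair alone, 4 of 9 endocytic proteins lay above 0. SNAREs and regulators had a median of -0.19 (7 of 9 below). Active zone scaffolds had a median of 0.37, with 2 of 4 above 0. The lowest members were Syt4 at -1.96, Cplx2 at -1.93, Syt1 at -1.83, Napb at -1.80 and Sv2b at -1.79, all within the lowest 1.35% of the 7257 genes. The authors' deposited table gives Syt4 a mean of 48.9 normalized counts in axons and 632 in soma, and Syt1 23.6 and 280.1. The highest were Bsn at 0.95, Unc13b at 0.92, Syn1 at 0.80, Pclo at 0.79 and Nsf at 0.31, between the percentiles 62.7 and 81.8. Bsn had deposited means of 117 in axons and 202 in soma, and Syn1 44.2 and 84.5, in the authors' deposited table.

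How firm these positions are depends on the somatic libraries. With the deep pair as the somatic level, Vamp2 stood at 2.63, Bsn at 2.29 and Syn1 at 2.24, and with the shallow pair at -0.95, 0.25 and 0.08. Vamp2 thus changed sides, and Syn1 and Bsn stayed above 0. Unc13b (1.05 and 0.72), Pclo (1.12 and 0.45) and Nsf (0.35 and 0.16) lay above 0 with each pair. Syt1 (-2.14 and -1.61), Cplx2 (-2.20 and -1.76), Sv2b (-2.20 and -1.42), Napb (-2.36 and -1.19) and Syt4 (-2.57 and -1.21) lay below 0 with each pair. Of the 34 members with both values, 17 were below 0 and 5 above 0 with each pair, and the other 12 changed sides. The median over vesicle proteins was -1.12 with the deep and -1.08 with the shallow pair, that over endocytic proteins -0.29 and -0.81, and that over the 4 active zone identifiers 0.74 and 0.21. Paralogs could be far apart here: Syn1 at 0.80 and Syn2 at -1.17, Cplx1 at -0.06 and Cplx2 at -1.93, Napa at -0.19 and Napb at -1.80. Reads that such near relatives share could have been split between them in counting, which the deposited means do not show.

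**Figure D4:**
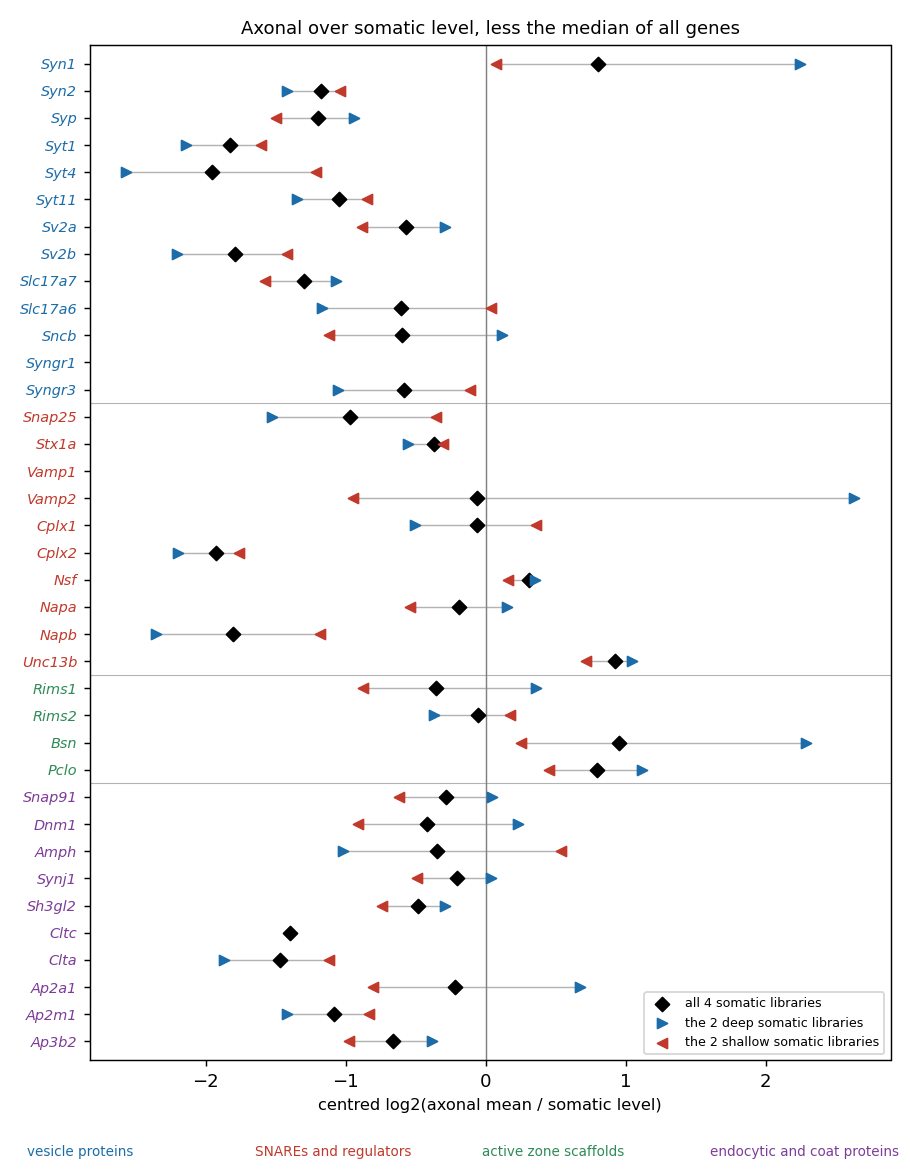
The horizontal axis is the log2 ratio of axonal mean to somatic level less its median over all genes, with diamonds for the mean of the 4 somatic libraries and triangles for the deep and the shallow pair, for the 35 members with a mean of at least 10. Vesicle proteins mostly lie left of 0 with each pair, Unc13b, Pclo, Bsn, Syn1 and Nsf lie right of it, and Vamp2 spans both sides.

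The vesicle cycle holds further genes, of which a list of 62 symbols (other synaptotagmins, tethers, Rab3 proteins, liprins, coat subunits and their partners) matched 60 identifiers. In axons 10 had an adjusted p and 1 was called, on the negative side, beside the background of 14.2%. That gene was Rimbp2, which ties Rims proteins to calcium channels. It had 83.9 and 41.5 normalized counts on the positive side against 246 and 161 on the negative side, without overlap. The authors' deposited table lists -1.60 on the log2 scale with an SE of 0.51 for it (adjusted p = 0.0137), and axonal and somatic means of 133 and 44.3. Of all 1321 genes with an adjusted p, 188 were called negative, and of the 1052 whose somatic mean reached 100, 98 were. Such calls were thus more frequent among genes of lower somatic mean, as Rimbp2 is. The centred level ratio of Rimbp2, 3.32, was above that of each member of the main list. The 5473 genes read in axons but not in soma also stood higher on the negative side, at 17224 and 14466 summed normalized counts against 9002 and 4122, and the part of such reads in the value of Rimbp2 was not tested. Over the 60 identifiers, 30 axonal fold changes lay above and 30 below 0, with a median of 0.00. Rimbp2, Rph3a and Unc13c, the last 2 named after their values were seen, stood on the negative side with unadjusted p-values under 0.05 (DESeq2). These were the only 3 of the 60 under that cut on either side, beside 1063 of all 23879 genes with axonal reads. In soma 0 of the 60 were called or had an unadjusted p under 0.05 (DESeq2), and in the test between compartments 0 passed, with 0 at an unadjusted p under 0.05.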

How the data were processed

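RNA sequencing of 8 samples (4 groups of 2, grouped by sample title) was analysed. DESeq2, SAMtools, TopHat2 and Trim Galore stand in the submitters' processing notes, with no version. Build, annotation and read counter: not given in the sources used here. Per the file headers, the authors deposited for each compartment a mean normalized count (a signal, gene counts divided by size factors and averaged over 4 libraries), a fold change and its standard error on the log2 scale, a Wald score, and a p-value with its adjusted p-value. No column is given per library, so the authors' adjusted p under 0.05 is the test, and no count test was run. An added somatic fit used limma 3.58.1 in R 4.3.3 on recovered values, with depth as a block. The labels do not say whether the 2 samples of a group are separate cultures, and the p-values may thus measure technical spread alone. For 34 of the 35 members with an axonal mean of at least 10, the deposited log2 fold change was nearer 0 than that between the means of the sides.

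Means carry up to 15 significant digits. Each is a sum of 4 whole read counts times a unit fixed per library, and single-read genes gave the units and, by the sign of their fold change, the side. Below a mean of 500, a single solution was found for 100% of genes and none for decoys (0%). From 500 to 1000, 7.69% of axonal and 3.42% of somatic decoys had one, so the somatic libraries of Syp, Syt4, Syt11, Slc17a7 and Ap2m1 are less certain. Higher means were not resolved.

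The difference between compartments was a z-test on the summed squared standard errors. Python 3.11.15, pandas 2.3.3, NumPy 2.4.6 and SciPy 1.17.1 were used, and the recovery, the z-test and the limma fit were tested on simulated data. The simulated estimates of the z-test were drawn around the true value. Deposited fold changes can lie nearer 0 than the ratio of the sides, by unequal amounts in the compartments. For Stx1a they were 0.42 beside 0.49 in axons and 0.43 beside 0.55 in soma. The z-test and its simulation do not allow for this. Members, lists and rules were chosen with earlier results of these data known. Fold changes are given for members with an adjusted p and those of smallest unadjusted p, level ratios for the 5 highest and 5 lowest, and other members by library or range. Of markers also looked up, 3 of 7 for fibroblasts were called in axons, on the positive side. The other 4 had log2 fold changes below 0, and the median of the 7 was -0.05. None of 8 for oligodendrocytes had an adjusted p there. Symbols came from the tables or, by Entrez identifier, from RefSeq (GRCr8).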

Additional observations from a re-analysis of the deposited data

How the results depend on the processing

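The count of members called was 0 in axons, in soma and in the test between compartments under each of the alternatives run, with smallest adjusted p-values of 0.442 over axonal genes with a mean of at least 10, 0.960 over every gene with a p-value and 0.132 after centring on genes whose somatic mean reached 100 (DESeq2 p-values, Benjamini-Hochberg). All 270 values of single members under these settings kept their side of the threshold. An adjusted p cannot lie below its unadjusted one. The smallest unadjusted p of a member was 0.248 in soma (DESeq2) and 0.0866 between compartments (z-test), so re-adjustment alone could call none there. In axons it could call at most 1, Cltc. Over all genes, 304 axonal calls became 81 and 52 with the first 2 adjustments named above and 288 after centring. Centring moved the split from 116 positive and 188 negative to 67 and 221. The 6 genes passing between compartments became 0 after centring, and the 0 of soma became 1 with depth as a block (limma, added after seeing the data). The median level ratio of -0.57 became -0.85 when centred on genes with a mean of at least 100, 0.18 when centred on neuron markers, and -0.82 with the shallow somatic libraries alone (chosen after seeing the data). Leaving out 1 library, also chosen later, gave median log2 side ratios of -0.11 to 0.38 in axons and -0.13 to 0.12 in soma. The cause of these changes was not tested. No paired analysis was possible because the tables carry no replicate numbers. Somatic libraries could be paired by depth alone, as above. Axonal reads were few: the 22 members without an adjusted p had at most 60 reads in any library. Snap25, which has an adjusted p, also had at most 60. The part of depth in this was not tested.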
